A study of Bos taurus with 10 samples.

Results

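Bovine embryos made by in vitro fertilisation (IVF embryos) were compared with adult bovine lung by the 10186 probe sets of a human expression array that carried a value and were not manufacturer's controls. These were taken from 22283 probe sets on the array, of which 10219 had values and 33 of those were controls. The comparison used 4 of the 10 arrays of the study: 3 arrays of IVF embryo RNA, each labelled as a pool of total RNA, and 1 array of adult lung RNA. The other 6 arrays, 1 each of adult brain, heart, kidney, liver, muscle and spleen, served to show where lung itself stood among tissues. The labels give no age or stage for the embryos, no breed, sex or age for the adult animals, no treatment, and no word on whether 1 pool or several lay behind the 3 embryo arrays. All samples were bovine RNA hybridised across species to human probes.

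Lung is built on a large epithelial surface. Flat alveolar type I cells carry gas exchange, cuboidal type II cells make surfactant, and ciliated and secretory cells line the airways, over a bed of capillaries, elastic matrix, smooth muscle and resident macrophages. The early mammalian embryo also makes an epithelium: its outer layer, the trophectoderm, is held together by keratin filaments and tight junctions and moves sodium and water inward. Simple keratins, cadherin, claudins and Krüppel-like factors are genes that both kinds of epithelium are known to use.

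Intensities were quantile normalised over the 10 arrays, which gave every array a median of 145.75. Differences are IVF embryo minus lung on the log2(intensity + 70.85) scale, a scale that shrinks the apparent change where intensities are low. A gene was called when the limma adjusted p was under 0.05 and the difference was at least 2-fold (1 on the log2 scale). Errors of differences are standard errors from the fit. Lung had 1 array, which the fit assumes to vary like the embryo arrays, and p-values measure the spread between the 3 embryo arrays, which may be technical. Each gene is given by its brightest tested probe set. Low intensity can come from bovine RNA that pairs badly with a human probe as well as from little RNA, so each probe set is compared across arrays and never with another probe set. In bulk RNA, fewer cells of a type and less RNA per cell cannot be told apart.

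The deposited medians were 123.7, 160.45 and 221.0 on the embryo arrays and 130.0 on the lung array. The 5′ over 3′ ratio of the ACTB control was 0.566, 0.728 and 0.604 on the embryo arrays, against 0.311 on the lung array, and that of the GAPDH control was 0.461, 0.488 and 0.463, against 0.376. Both ratios were lower in lung, and their part in the results below was not tested. The embryo arrays correlated with one another at r = 0.944 for the first and the second, 0.881 for the second and the third, and 0.842 for the first and the third, across probe sets, which are not independent. Each correlated with lung at 0.287 to 0.311. All these correlations used the 6639 tested probe sets alone. Probe sets dim in both embryo and lung were thus left out, so the values do not measure likeness over all probe sets. Of 39 lung marker genes, 20 had values. Of their 28 probe sets above the median in some tissue, 11 were brightest in lung among the 7 tissues. Among these 11 were 5 probe sets of SFTPC, which read the same gene. The share of all probe sets that were brightest in lung was not counted, so the lung counts are a description. The embryo label was checked with SOX2, LIN28A, DNMT3B, KRT8, KRT18, TFAP2C and GATA6, and all 7 were called higher in embryos. These genes were chosen with earlier results of these data known, so this is a description and not an independent check. POU5F1, also planned for it, had no value under its symbol alone. Other genes of the same lineage lists were lower or not called, as given below.

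Of 6639 probe sets tested, 573 (8.63%) were higher and 797 (12%) were lower in IVF embryos than in lung. Over 4642 genes, 365 (7.86%) were higher and 542 (11.7%) were lower, and the median difference was 0.04. The direction of the calls moved with scaling: 41.8% of the called probe sets were higher in embryos after quantile normalisation, against 52.0% with the values as deposited, which moved the median difference over probe sets to 0.23 from 0.05. Counts of calls also moved with the groups and arrays used. Taking the spread from the 6 other tissues as well left 166 higher and 217 lower probe sets, and leaving out the second embryo array left 94 higher and 329 lower. Genes bright on the embryo arrays alone, on lung alone and on both lie in separate regions of the plot of embryo against lung intensity.

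**Figure D1:**
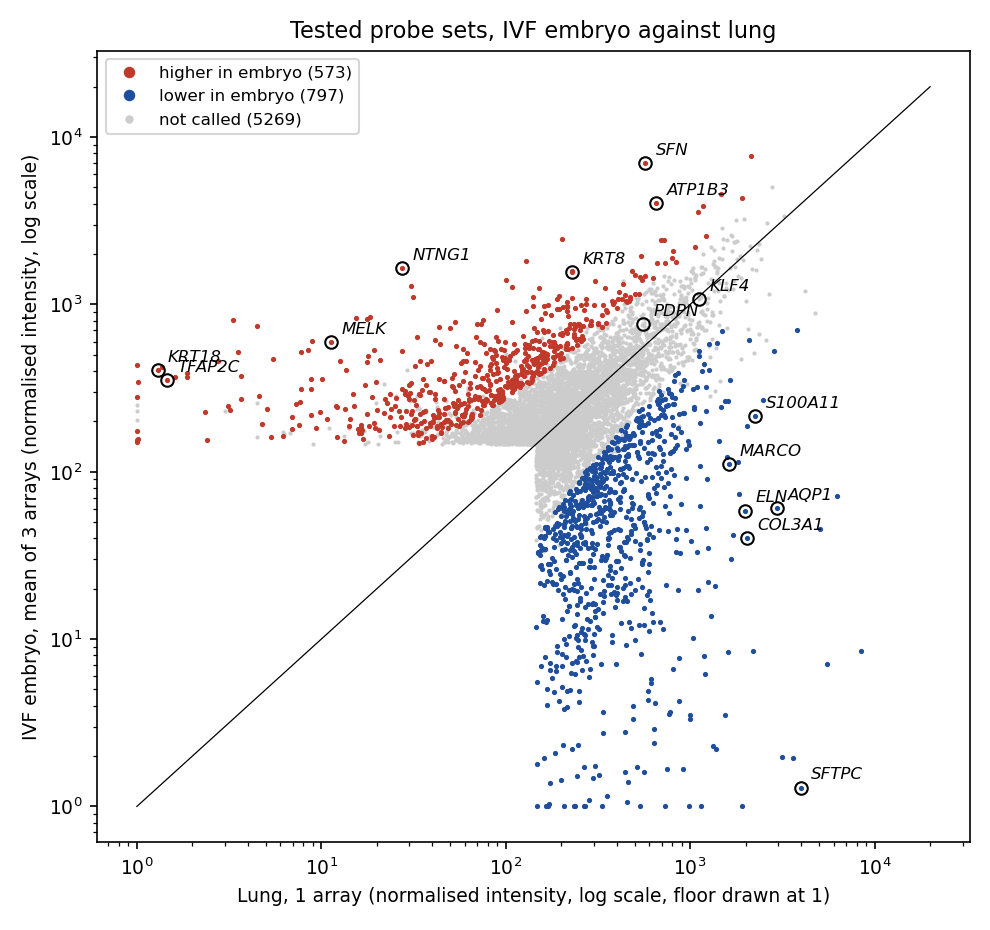
Each point is 1 of 6639 tested probe sets, with the mean of the 3 IVF embryo arrays on the vertical axis and the lung array on the horizontal axis, both as quantile-normalised intensity on log scales. Red points (573) were called higher and blue points (797) lower in embryos, and the line marks equal intensity. SFN, ATP1B3 and KRT8 lie above the line, KLF4 lies on it and SFTPC lies at the lower right.

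Epithelial genes were taken from 6 lists: simple keratins, stratified and basal keratins, desmosome and adherens junction, tight and gap junction, epithelial transcription factors, and epithelial surface and secreted proteins. Of 133 genes listed, 65 had values and 50 were tested. In IVF embryos 11 were higher, 8 were lower and 31 were not called, with a median difference of -0.02, against 0.04 over all genes. Against 7.86% and 11.7% of all genes, these shares were 22% and 16%. Of the 50, 26 were above the array median on all 3 embryo arrays and on lung, and 19 of these 26 were not called. KRT19, KRT7, EPCAM and DSP had no value and were not analysed here.

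**Figure D2:**
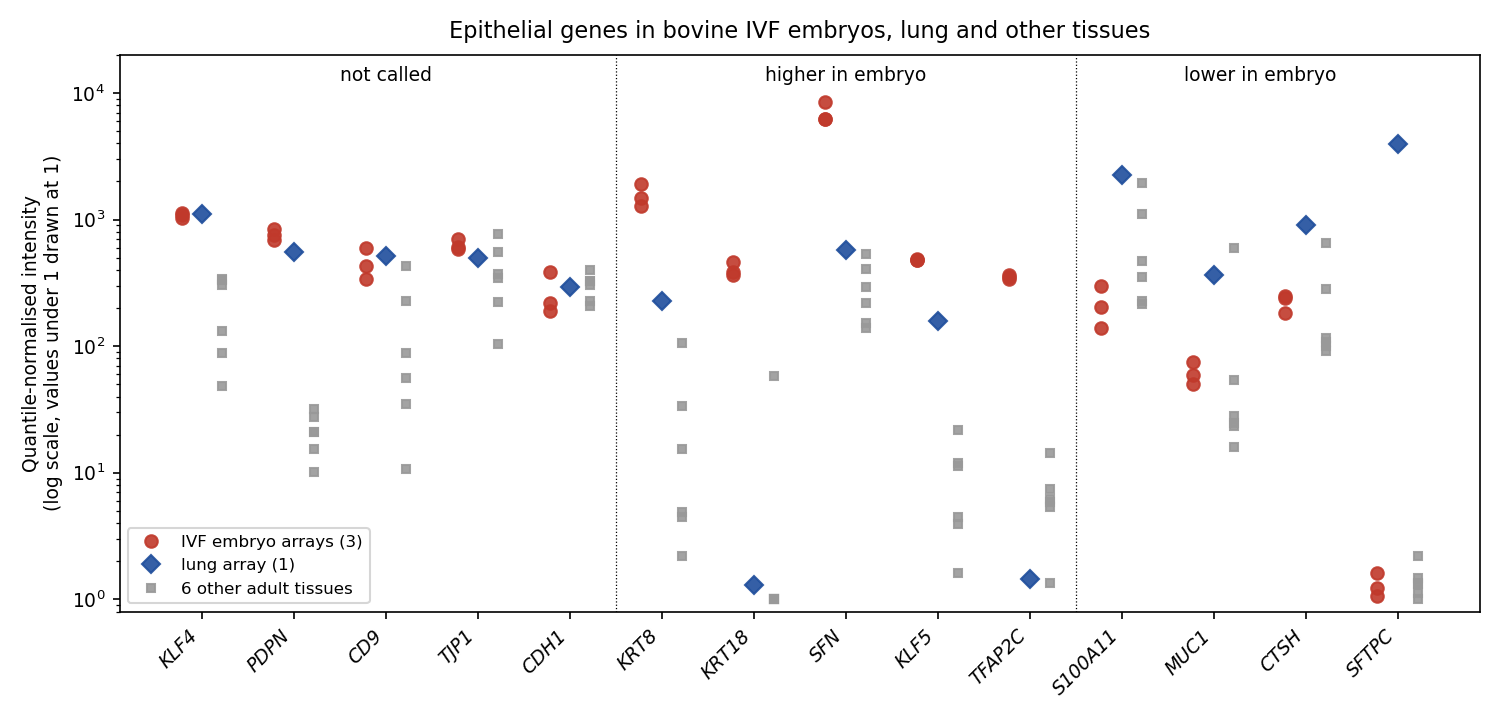
Quantile-normalised intensity (log scale, values under 1 drawn at 1) of 14 genes on the 3 IVF embryo arrays (red circles), the lung array (blue diamonds) and the 6 other adult tissues (grey squares). The 5 genes on the left were not called between embryo and lung, the next 5 were higher in embryos and the last 4 were lower. Heights of different genes are not comparable, since each is a different probe set.

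KLF4, a Krüppel-like transcription factor of epithelia and of pluripotent cells, had almost the same intensity in embryo and lung. It read 1078, 1120 and 1032 on the embryo arrays and 1113 in lung. The lung value fell between the embryo values, and all 4 were above the 48.5 to 340 of the other tissues. The difference was -0.05 ± 0.16, with a 95% interval of -0.47 to 0.37 (limma adjusted p = 0.848). Lung was above the mean of the 6 other tissues by 2.25 (limma adjusted p = 0.00217).

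PDPN encodes podoplanin, a membrane glycoprotein that marks alveolar type I cells in lung. It read 848, 754 and 693 on the embryo arrays and 553 in lung, against 10.1 to 31.7 in the other tissues. All 3 embryo values were above lung, and embryo and lung stood well apart from every other tissue. A second, dimmer PDPN probe set that was not tested read 110, 135 and 170 on the embryo arrays and 112 in lung, and did not set either apart from the other tissues. The difference of 0.42 ± 0.19 was not called (95% interval -0.07 to 0.91, limma adjusted p = 0.166). Lung exceeded the mean of the other tissues by 2.77 (limma adjusted p = 0.00186).

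Of 15 tested adhesion and junction genes 12 were not called, a share close to that of all genes. CDH1, which encodes E-cadherin, the adhesion molecule of adherens junctions, read 386, 220 and 190 on the embryo arrays and 296 in lung. The lung value lay within the embryo range, and the interval of the difference was -1.09 to 0.75. CTNNB1, which encodes beta-catenin, the cadherin partner and Wnt effector, read 642, 396 and 285 on the embryo arrays and 486 in lung, again overlapping. TJP1, the tight junction scaffold ZO-1, read 697, 603 and 583 on the embryo arrays and 501 in lung, a difference of 0.29 (95% interval -0.18 to 0.75). The embryo values were all slightly above lung. CLDN15, a claudin of paracellular channels, read 657, 597 and 670 on the embryo arrays and 638 in lung (difference 0.00, 95% interval -0.42 to 0.43). CLDN7 and PKP2 were not called either, at differences of 0.37 and -0.07. CTNNA1 was not called by its brightest probe set at -0.28 (limma adjusted p = 0.259), while a dimmer probe set of it was lower in embryos at -1.09 (limma adjusted p = 0.014).

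Several surface and secreted proteins were not called. CD9, a tetraspanin, read 599, 431 and 340 on the embryo arrays and 519 in lung, a difference of -0.19 (95% interval -0.99 to 0.61); the other tissues ran from 10.7 to 431, and lung was above their mean by 1.78 (limma adjusted p = 0.0245). CD151, another tetraspanin, differed by 0.10 and MET, the receptor of hepatocyte growth factor, by 0.22. A second MET probe set read 366, 455 and 554 on the embryo arrays and 204 in lung, without overlap, and missed the call at a difference of 0.93 (limma adjusted p = 0.0498). WFDC2, a secreted protease-inhibitor family member, differed by -0.28, PIGR, the transporter of polymeric immunoglobulin, by -0.09, and S100A10, the partner of annexin A2, by -0.45 with an interval of -1.42 to 0.53. None of these 6 genes was called. Among transcription factors, ELF1, ELF5 and OVOL2 differed by -0.40, -0.26 and 0.18 and were not called. The 19 epithelial genes that were above the median on all 4 arrays without a call all had differences within 1.5-fold, on the offset scale.

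The largest epithelial rise was SFN, which encodes stratifin (14-3-3 sigma), a keratinocyte and epithelial adaptor protein. SFN read 6224, 8428 and 6224 on the embryo arrays, against 571 in lung. Every embryo value was more than 10 times the lung value, and the difference was 3.44 ± 0.24 (limma adjusted p = 0.00128). The other 2 probe sets of SFN were also higher, at 3.75 and 3.13. In lung, SFN was not called against the other tissues, which ran from 139 to 539.

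The simple keratins KRT8 and KRT18 pair to form the filaments of single-layered epithelia. KRT8 read 1927, 1491 and 1278 on the embryo arrays and 229 in lung, against 2.21 to 106 in the other tissues. Embryos were highest and lung was next, above every other tissue. The difference was 2.43 ± 0.27 (limma adjusted p = 0.00407), and lung was above the mean of the others by 1.68 (limma adjusted p = 0.0194). KRT18 read 463, 365 and 386 on the embryo arrays and 1.30 in lung (difference 2.71 ± 0.17, limma adjusted p = 0.00102). KRT20 and KRT10 were not called.

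Of the epithelial transcription factors, TFAP2C, KLF5, GATA6 and SOX2 were higher in embryos. TFAP2C, an AP-2 factor of trophectoderm, read 339, 353 and 364 on the embryo arrays and 1.46 in lung (2.55 ± 0.13, limma adjusted p = 0.000681), although its second probe set was not called because the third embryo array read 28.5 there. KLF5, a Krüppel-like factor that acts in trophectoderm and in lung epithelium, read 487, 478 and 476 on the embryo arrays and 158 in lung. The other tissues had at most 21.6 on that probe set, and the difference was 1.27 ± 0.16 (limma adjusted p = 0.00588). A second KLF5 probe set was also higher in embryos (1.36, limma adjusted p = 0.0487), but its lung value of 28.9 was not above all the other tissues, of which kidney read 47.5. GATA6, a factor of primitive endoderm and of lung and gut lineages, read 547, 479 and 523 on the embryo arrays and 159 in lung. Its difference was 1.35 ± 0.17 (limma adjusted p = 0.00633). SOX2, a factor of pluripotent cells and of airway epithelium, read 579, 802 and 990 on the embryo arrays and 52.8 in lung (2.77 ± 0.31, limma adjusted p = 0.00429).

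CLDN10, LGALS3, CD24 and PERP were the remaining epithelial genes higher in embryos. CLDN10, a claudin, read 727, 1138 and 1085 on the embryo arrays and 214 in lung (1.86, limma adjusted p = 0.011). LGALS3, the lectin galectin-3, read 573, 649 and 412 on the embryo arrays and 82.7 in lung (1.98, limma adjusted p = 0.0078). CD24, a small surface glycoprotein, differed by 1.87, with 1 of its other 3 probe sets not called (0.70), and PERP, a desmosomal membrane protein, by 1.68 (limma adjusted p = 0.0257). The embryo and lung values did not overlap in any of the 4. Kidney read 1742 for CLDN10 and 764 for CD24, above every embryo array, and liver read 652 for PERP, within the embryo range. For LGALS3 the other tissues read at most 66.1. With the spread of the other tissues included, 6 of the 11 epithelial rises were called (KRT8, KRT18, SFN, KLF5, TFAP2C and LGALS3), and without the second embryo array 3 were (KRT18, SFN and TFAP2C).

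The 8 epithelial genes lower in embryos were S100A11, S100A4, MUC1, GJA1, CEBPB, CEBPA, ANXA3 and S100A6. S100A11, a calcium-binding protein, read 206, 300 and 140 on the embryo arrays and 2248 in lung (-3.06 ± 0.34, limma adjusted p = 0.00421). S100A4, of the same family, read 6.86, 4.68 and 6.21 on the embryo arrays and 283 in lung (-2.20 ± 0.10, limma adjusted p = 0.000616). Lung was above the mean of the other tissues in both. MUC1, a membrane mucin of secretory surfaces, read 74.5, 49.8 and 59.1 on the embryo arrays and 364 in lung (-1.73 ± 0.18, limma adjusted p = 0.00357), and its second probe set was lower too. GJA1, the gap junction protein connexin 43, differed by -1.67. CEBPA and CEBPB, leucine zipper factors of which the first drives lung and liver differentiation, differed by -1.34 and -1.46. ANXA3 and S100A6 differed by -1.24 and -1.04, and S100A6 lost its call without any one of the embryo arrays. Without the second embryo array S100A11 and S100A4 alone were called, and with the spread of the other tissues included none of the 8 was.

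Among the genes of all lists SFTPC had the largest fall. It encodes surfactant protein C, made by type II cells. SFTPC read 1.61, 1.06 and 1.22 on the embryo arrays and 3989 in lung, and 1.01 to 2.20 in the other tissues. On that probe set every array but lung read at most 2.20. The difference was -5.81 ± 0.10 (limma adjusted p = 9.3e-05), and the other 4 SFTPC probe sets were also lower, at -3.18 to -5.66; the one at -3.18 read 51.2 to 75.6 on the embryo arrays and up to 140 in the other tissues. These probe sets read the same gene and are not independent of one another.

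Of 19 type II cell genes, 9 had values and 6 were tested. In embryos 4 were lower, against 11.7% of all genes, none was higher, and the median was -1.59. SFTPD, the collectin surfactant protein D, read 12.4, 40.3 and 123 on the embryo arrays and 458 in lung. The third embryo array was the highest of the 3, and all were below lung; the difference was -2.12 ± 0.47 (limma adjusted p = 0.03) and was not called with the values as deposited or without the first or the second embryo array. CTSH, the protease cathepsin H that processes surfactant protein precursors, read 249, 242 and 184 on the embryo arrays and 911 in lung (-1.74, limma adjusted p = 0.00555). LPCAT1, which makes the dipalmitoyl phospholipid of surfactant, read 229, 254 and 276 on the embryo arrays and 811 in lung (-1.45, limma adjusted p = 0.00598). All 3 embryo values were below lung in both, and both lost the call without the second. ETV5, at -0.80, was not called. SFTPB, surfactant protein B, read 236, 173 and 112 on the embryo arrays and 195 in lung, with no call (-0.15), and lung was not above the other tissues for it. A probe set annotated to both SFTPA1 and SFTPA2, which encode surfactant protein A, read 6.46, 28.1 and 6.52 on the embryo arrays and 1289 in lung (-4.02 ± 0.19, limma adjusted p = 0.000616).

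Type I cell genes split. Of 18 listed, 11 had values and 9 were tested. In embryos 4 were lower and 1 was higher, against 11.7% and 7.86% of all genes, with a median of -0.94. CAV1, the caveolar coat protein caveolin-1, which endothelium also makes, read 41.3, 53.9 and 48.8 on the embryo arrays and 572 in lung (-2.44 ± 0.17, limma adjusted p = 0.00131). SPOCK2, a matrix proteoglycan, read 75.4, 73.9 and 37.4 on the embryo arrays and 729 in lung (-2.60 ± 0.24, limma adjusted p = 0.00262). Brain, at 1148, and kidney, at 820, were above lung for SPOCK2. A second SPOCK2 probe set, not tested, read 132, 132 and 138 on the embryo arrays and 138 in lung. AGER, the receptor for advanced glycation end products, read 98.7, 48.5 and 113 on the embryo arrays and 326 in lung (-1.36, limma adjusted p = 0.0284), but the other tissues ran from 143 to 602 and lung was not above them. ICAM1, an adhesion molecule, went the other way: it read 912, 990 and 845 on the embryo arrays and 215 in lung (1.78 ± 0.17, limma adjusted p = 0.00286), and lung was below the other tissues, which ran from 436 to 2472. A second ICAM1 probe set was not called (0.43), and its first embryo value, 89.9, was below its lung value, 91.1. PDPN, described above, was not called, nor were CYP4B1, VEGFA and AHNAK. Without the second embryo array 2 of the 4 falls of type I genes and 1 of the 4 of type II genes were called.

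Of 28 airway genes, 13 had values and 10 were tested. In embryos 3 were lower, against 11.7% of all genes, none was higher and the median was 0.17. ALDH1A1, a retinal dehydrogenase of secretory cells and other tissues, read 1.93, 0.92 and 0.32 on the embryo arrays and 455 in lung (-2.87 ± 0.16, limma adjusted p = 0.000778). LYZ, lysozyme, which macrophages make as well, read 1.30, 1.95 and 3.79 on the embryo arrays and 246 in lung (-2.11, limma adjusted p = 0.000681). CYP2F1, a cytochrome P450 of club cells, read 65.5, 25.9 and 3.53 on the embryo arrays and 352 in lung (-2.09, limma adjusted p = 0.0153), a spread between embryo arrays of over 10 times. For each of these 3 genes another tissue was above lung. Kidney read 471 for ALDH1A1, and spleen read 754 for LYZ and 797 for CYP2F1. The mucins MUC5AC and MUC5B and the cilium gene SPAG6 were not called. None of the 3 falls was called with the spread of the other tissues, and 2 were without the second embryo array.

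NKX2-1, the transcription factor of lung and thyroid epithelium, gave different answers by probe set. Its brightest probe set read 300, 310 and 280 on the embryo arrays and 323 in lung, against 202 to 590 in the other tissues, and was not called. The other read 7.70, 5.14 and 10.3 on the embryo arrays and 873 in lung, and at most 4.85 in the other tissues (-3.59, limma adjusted p = 0.000182). The second of them set lung apart from every other array, and the brightest did not.

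Sodium and water transporters differed subunit by subunit. Of 27 such genes 13 had values and 7 were tested. In embryos 4 were lower and 1 was higher, against 11.7% and 7.86% of all genes. ATP1B3, the beta 3 subunit of the sodium pump, read 3779, 4181 and 4181 on the embryo arrays and 656 in lung (2.50 ± 0.17, limma adjusted p = 0.00111). ATP1B1, the beta 1 subunit, went the opposite way, at 218, 291 and 205 on the embryo arrays and 1048 in lung (-1.87 ± 0.22, limma adjusted p = 0.00495). Neither pair overlapped, and the second probe set of ATP1B1 was lower too.

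The water channel AQP1, which lines lung capillaries, read 66.6, 57.2 and 57.3 on the embryo arrays and 2964 in lung (-4.53 ± 0.16, limma adjusted p = 0.000369). The other tissues ran from 123 to 5038, and the call was lost when their spread was included (adjusted p = 0.103). AQP4 read 25.3, 31.0 and 40.5 on the embryo arrays and 242 in lung (-1.60, limma adjusted p = 0.00337). Brain, at 1200, was above lung for AQP4. A second AQP4 probe set, not tested, read 2.47 in lung and 175 in brain. AQP3 had 3 tested probe sets that disagreed: the brightest read 29.7, 29.4 and 28.8 on the embryo arrays and 398 in lung and was called lower (-2.23), while the others, at -0.77 and 0.76, were not called. AQP9 and FXYD3 were not called. ATP1B3 and AQP3 were the ones still called with the spread of the other tissues.

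Probe sets bright in lung alone were those above the array median in lung and at least 4 times every other array, with values below the offset set to it first. There were 59 of 10186 (0.579%), of which 50 had 1 gene symbol (44 genes), 5 had several and 4 had none. Their choice used the lung and embryo values, so their 59 calls as lower in embryos are a description. The same rule gave 186 probe sets for brain, 390 for liver, 74 for muscle, 72 for heart, 23 for kidney and 18 for spleen, and 43 for the embryo arrays by their lowest value, so lung was neither the richest nor the poorest.

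**Figure D3:**
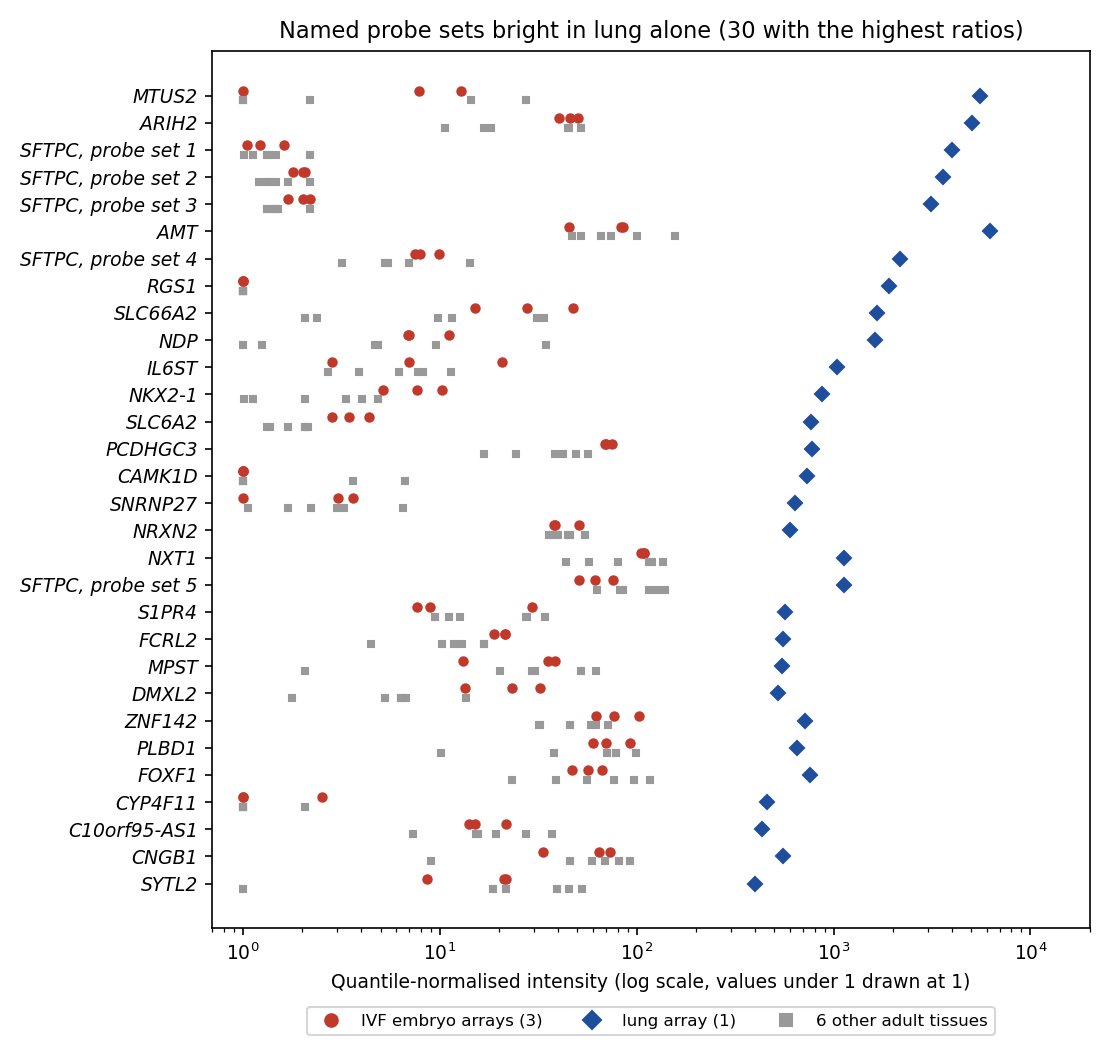
Quantile-normalised intensity (log scale, values under 1 drawn at 1) of the 30 named probe sets with the highest ratio of lung to the next array, in the 3 IVF embryo arrays (red circles), the lung array (blue diamonds) and the 6 other adult tissues (grey squares). Each lung value stands clear to the right of every other array, and SFTPC fills 5 rows.

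SFTPC gave 5 of the 59. MTUS2, a microtubule-associated protein, read 7.81, 12.9 and 0.58 on the embryo arrays and 5534 in lung (-6.17). AMT, the aminomethyltransferase of glycine cleavage, read 83.1, 85.2 and 45.4 on the embryo arrays and 6224 in lung (-5.48). ARIH2, a ubiquitin ligase, read 45.8, 50.5 and 40.2 on the embryo arrays and 5038 in lung (-5.46). Another ARIH2 probe set read 214, 157 and 113 on the embryo arrays and 89.7 in lung, with no call. RGS1, a regulator of G protein signalling in leukocytes, was listed at 0 on all 3 embryo arrays and read 1902 in lung. Spleen, a tissue rich in leukocytes, was listed at 0 for it too.

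NDP, the Wnt ligand norrin, read 6.98, 6.87 and 11.1 on the embryo arrays and 1614 in lung (-4.41). SLC6A2, the noradrenaline transporter, read 4.35, 2.85 and 3.45 on the embryo arrays and 772 in lung (-3.50), and a second probe set of it was also bright in lung alone. FOXF1, a factor of lung mesenchyme, read 47.1, 56.9 and 66.4 on the embryo arrays and 763 in lung (-2.71). SLC66A2, PCDHGC3, a gamma protocadherin, and CAMK1D, a calmodulin-dependent kinase, differed by -4.11, -2.57 and -3.49. IL6ST, the gp130 receptor subunit of interleukin 6 signalling, was bright in lung alone by 1 probe set (6.98, 2.85 and 20.6 on the embryo arrays, 1040 in lung), but its brighter probe set read 144, 198 and 213 on the embryo arrays and 529 in lung, within the range of the other tissues. In all, 8 of the 44 genes had another tested probe set that was not bright in lung alone: PRDX6, ARIH2, AQP3, CNGB1, SMAD6, NKX2-1, IL6ST and ZNF142.

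Genes shared by embryo and lung were described by the reverse rule: the lowest of the 3 embryo arrays and lung had to be above the highest of the other tissues and above the median. This held for 156 of 10186 probe sets (1.53%) and, by their brightest tested probe set, for 111 of 4642 genes (2.39%). Of the 156, 11 were called higher in embryos than in lung, 1 was lower and 144 were not called. Over all tested probe sets 8.63% were higher and 12% lower. The rule asked for bright values in both embryo and lung, so these counts are a description. Putting another tissue in the place of lung gave 289 probe sets for spleen, 178 for brain, 168 for liver, 160 for kidney, 120 for heart and 87 for muscle, so the count for lung lay within the range of the others. Among the 50 tested epithelial genes, 4 (KRT8, KLF4, KLF5 and SFN) were shared in this sense. SFN passed narrowly, at 571 in lung against 539 in spleen. On another SFN probe set lung, at 30.6, was below heart, at 89.9. On the remaining one lung, at 203, was above the other tissues, which read at most 121.

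PDPN, KLF4, KLF5 and KRT8 were among the 12 genes with the highest ratios. ANXA2, which encodes annexin A2, a membrane-binding protein, read 1230, 1026 and 1062 on the embryo arrays and 1143 in lung, against 166 to 443 in the other tissues (difference -0.05, 95% interval -0.52 to 0.42). Its other 2 probe sets gave 0.11 and -0.02, and none of the 3 was called. Probe sets named for its pseudogenes, ANXA2P3 and ANXA2P2, and for a KRT8 pseudogene, KRT8P12, were also shared, but they can read the parent gene's RNA and their names are uncertain for bovine RNA. ANXA2P3 was not called (-0.22), ANXA2P2 was higher in embryos (1.59, limma adjusted p = 0.00614), and KRT8P12 read 296, 265 and 176 on the embryo arrays and 400.0 in lung, the opposite order to KRT8, with no call (-0.59). CRIP1, a LIM-domain protein, read 249, 292 and 196 on the embryo arrays and 205 in lung, against at most 93.7 elsewhere (0.19). TPM4, a non-muscle tropomyosin, read 939, 931 and 732 on the embryo arrays and 177 in lung, and was higher in embryos (1.91, limma adjusted p = 0.00419), while lung was still above the other tissues. The chromatin regulators KDM5B, a histone demethylase, and JARID2, a Polycomb partner, differed by 0.27 and 0.76 and were not called. A second probe set of JARID2 was higher in embryos at 2.11, and on it lung, at 189, was below brain, at 205. Other KDM5B probe sets, not tested, did not set lung apart either. They read 5.66 and 12.6 in lung, against 505 and 456 in liver.

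Over 4642 genes, lung was above the mean of the 6 other tissues in 356 (7.67%) and below it in 59 (1.27%). Of the 50 tested epithelial genes 8 were above and none below: KRT8, KLF4, KLF5, MUC1, CD9, ANXA3, S100A4 and S100A11. Being above a mean did not make lung the highest tissue. Spleen read 1251 for ANXA3, against 924 in lung, and kidney read 601 for MUC1, against 364. For the rest lung was highest, with spleen close behind for S100A4 (263 against 283) and S100A11 (1953 against 2248). Embryos were higher than lung for KRT8 and KLF5, lower for MUC1, ANXA3, S100A4 and S100A11, and not called for KLF4 and CD9.

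**Figure D4:**
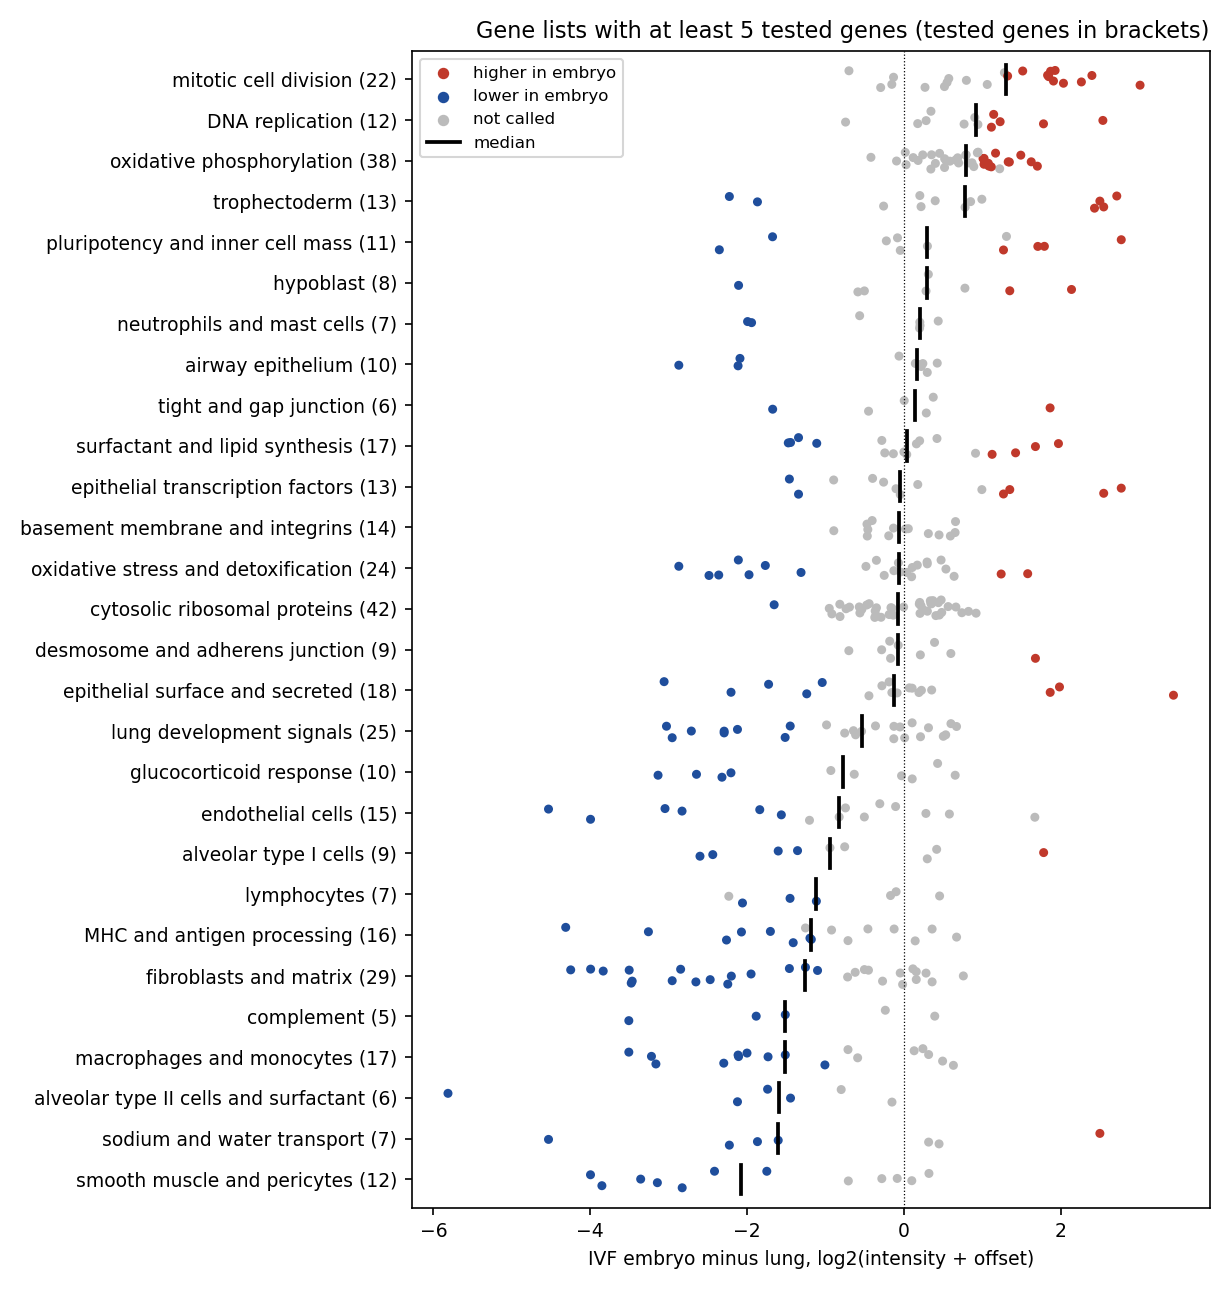
Difference of IVF embryo minus lung on the log2(intensity + 70.85) scale for each tested gene of the lists with at least 5 tested genes, with the number tested in brackets. Red points were called higher, blue points lower and grey points neither, and black bars mark list medians. Mitotic genes lie highest by median (1.30) and smooth muscle genes lowest (-2.08).

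The genes with the largest rises over lung were NTNG1, SFN, DLEC1, ENPEP, SEPTIN11, POU5F1P3, MELK, CITED1, MSH6 and ZNF552. NTNG1, the netrin G1 membrane protein, read 1998, 1425 and 1503 on the embryo arrays and 27.5 in lung (4.11 ± 0.25, limma adjusted p = 0.000864). DLEC1, named for deletion in lung and oesophageal cancer, read 786, 839 and 855 on the embryo arrays and 15.5 in lung, and its other 2 probe sets were higher too. ENPEP, the membrane enzyme aminopeptidase A, read 881, 796 and 793 on the embryo arrays and 17.6 in lung (3.34), but 1 of the other tissues reached 965 and the call was lost with their spread included. CITED1, a transcriptional coactivator partner, differed by 2.96, and MSH6, a mismatch repair protein, by 2.85. Apart from SFN and SEPTIN11, which read 100.5 in lung, these genes read at most 27.5 there. The probe set named for the pseudogene POU5F1P3 read 679, 611 and 518 on the embryo arrays and 8.91 in lung (3.07), and one annotated to POU5F1 and its pseudogenes together read 628, 554 and 381, against 7.81 in lung (2.89); which locus either reads in cattle was not determined. A second probe set of SEPTIN11 was not called (-0.18).

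Lineage genes of the embryo were mostly higher where called. Over all genes, 7.86% were higher and 11.7% were lower. Of 13 tested trophectoderm genes 4 were higher (KRT8, KRT18, TFAP2C and ATP1B3), 2 were lower (AQP3 and ATP1B1) and the median was 0.78. Of 11 tested pluripotency genes 4 were higher and 2 lower. LIN28A, an RNA-binding protein that blocks let-7 maturation, read 186, 205 and 138 on the embryo arrays and was listed at 0 in lung. DNMT3B, a de novo DNA methyltransferase, read 231, 246 and 240 on the embryo arrays and 23.9 in lung (1.71 ± 0.13, limma adjusted p = 0.00157). The 2 genes of the list that were lower, KLF2, a Krüppel-like factor of endothelium as well, and FGF4, differed by -2.35 and -1.68. Among germ cell genes, DDX4, the RNA helicase of germ cells, read 631, 362 and 269 on the embryo arrays and 1.37 in lung (2.70, limma adjusted p = 0.0107), and CTAG2, a cancer and testis antigen, differed by 2.04. Of 8 tested hypoblast genes 2 were higher (GATA6 and CTSV), 1 was lower (APOE, at -2.11) and 5 were not called. With the spread of the other tissues included none of the 8 was called. CTSV, a cathepsin counted with hypoblast genes, read 650, 536 and 553 on the embryo arrays and 76.6 in lung (2.14). None of the 4 tested genes of granulosa and cumulus cells was called, and the summed level of the 7 with values was 850 to 1129 on the embryo arrays and 816 in lung.

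Of 22 tested mitotic genes 11 were higher in embryos, against 7.86% of all genes, none was lower and 11 were not called (median 1.30). KIFC1, CENPF, CDC25C and NEK2 had differences below 0 and were not called. MELK, a mitotic kinase, read 623, 685 and 484 on the embryo arrays and 11.3 in lung (3.01 ± 0.23, limma adjusted p = 0.00146). CDC25A, a phosphatase that activates cyclin-dependent kinases, read 382, 347 and 339 on the embryo arrays and 10.1 in lung (2.40). KIF20A, a kinesin of cytokinesis, and CDC20, an activator of the anaphase-promoting complex, differed by 2.26 and 2.03, and the cyclin genes CCNA2, CCNB1 and CCNB2 by 1.85, 1.87 and 1.52. Of the 11 rises, 8 were called with the spread of the other tissues and 7 without the second embryo array. Of 12 tested DNA replication genes 5 were higher, none was lower and 7 were not called (median 0.92). RFC4, a subunit of the clamp loader, read 497, 419 and 473 on the embryo arrays and 20.9 in lung (2.54 ± 0.18, limma adjusted p = 0.00132), and was the one still called in either of those settings.

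Oxidative phosphorylation genes leaned the same way, with 12 of 38 tested higher, against 7.86% of all genes, none lower and a median of 0.79. ATP5PF, a subunit of ATP synthase, read 672, 685 and 692 on the embryo arrays and 161 in lung (1.70 ± 0.16, limma adjusted p = 0.0024). UQCRC1, of complex III, ATP5PB, of ATP synthase, and COX7A2, of complex IV, differed by 1.62, 1.49 and 1.35. For the first 3 genes the highest of the other tissues was above the highest embryo array, at 1133, 505 and 429. The 12 calls became 7 with arrays scaled to a common median, 1 without the second embryo array and none with the spread of the other tissues. Cytosolic ribosomal protein genes did not move as a group: of 42 tested, RPLP1 was lower (-1.65), and 41 were not called, with a median of -0.07.

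Fibroblast and matrix genes were lower in embryos where called. Of 29 tested, 16 were lower, against 11.7% of all genes, and none was higher (median -1.26). Lung was above the mean of the other tissues for 15, against 7.67% of all genes. COL3A1, a fibrillar collagen, read 30.7, 48.7 and 40.8 on the embryo arrays and 2035 in lung (-4.25 ± 0.18, limma adjusted p = 0.000477). Another 2 COL3A1 probe sets were lower, and 1 was not called, at 191, 191 and 142 on the embryo arrays and 192 in lung (-0.11). ELN, elastin, the elastic fibre protein of alveolar walls and arteries, read 54.8, 73.3 and 47.9 on the embryo arrays and 1988 in lung (-4.0 ± 0.19, limma adjusted p = 0.000641), but a second ELN probe set read 281, 251 and 222 on the embryo arrays and 176 in lung with no call. COL1A1, another fibrillar collagen, differed by -3.83 and IGFBP7, a secreted binding protein, by -3.50; a dimmer COL1A1 probe set was not called at 0.85. POSTN, THBS1, VCAN and SPARC were not called. Of the 16 falls, 9 were called with the spread of the other tissues and 13 without the second embryo array. None of the 14 tested genes of basement membrane and integrins was called, at a median of -0.06.

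Smooth muscle and pericyte genes had the lowest list median, -2.08, with 7 of 12 tested lower, against 11.7% of all genes, and none higher. RGS5, a G protein regulator of pericytes, read 35.2, 30.2 and 60.3 on the embryo arrays and 1718 in lung (-4.0 ± 0.22, limma adjusted p = 0.000772). MYH11, smooth muscle myosin, read 3.19, 3.63 and 3.74 on the embryo arrays and 1003 in lung (-3.85 ± 0.16, limma adjusted p = 0.000476). ACTA2, smooth muscle actin, and MYLK, myosin light chain kinase, differed by -3.36 and -3.14. Of 15 tested endothelial genes 6 were lower and none higher (median -0.83). Beside AQP1 these included HEG1, a junction receptor of endothelium, at 9.88, 7.10 and 6.76 on the embryo arrays and 1186 in lung (-4.0 ± 0.16, limma adjusted p = 0.000476). A second HEG1 probe set was not called (-0.07). EPAS1, the hypoxia factor HIF-2 alpha, and TIMP3, a metalloproteinase inhibitor, differed by -2.83 and -3.05. PECAM1, which marks endothelium, was not called (-0.31). With the spread of the other tissues 3 of the 7 smooth muscle falls and 4 of the 6 endothelial falls were called.

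Immune genes were lower where called. Over all genes, 11.7% were lower. Of 17 tested macrophage genes 10 were lower and none higher (median -1.51). MARCO, a scavenger receptor of alveolar macrophages, read 114, 127 and 94.1 on the embryo arrays and 1623 in lung (-3.22 ± 0.19, limma adjusted p = 0.000835), and lung was above the mean of the other tissues by 3.45. C1QB, a chain of complement C1q, read 1.61, 0.27 and 9.07 on the embryo arrays and 776 in lung (-3.51 ± 0.17, limma adjusted p = 0.000641). AIF1, a calcium-binding protein of macrophages, and MRC1, the mannose receptor, differed by -3.16 and -2.30. With the spread of the other tissues 2 of the 10 were called, and for C1QB, AIF1 and MRC1 the highest of those tissues, at 1471, 1015 and 1284, was above lung. Of 16 tested genes of MHC and antigen processing 8 were lower and none higher (median -1.19). The probe set named HLA-C read 2.33, 1.95 and 2.38 on the embryo arrays and 1382 in lung (-4.31 ± 0.16), and that named HLA-B differed by -3.26; class I genes are a family of near copies, so which bovine gene each reads is uncertain, and 1 of the other 3 tested HLA-C probe sets was not called. Of 7 tested lymphocyte genes 3 were lower, led by CD6, a T cell receptor-associated glycoprotein (-2.06). On that CD6 probe set spleen, at 9.46, was below brain (41.5) and heart (49.6). Other CD6 probe sets, not tested, read 140, 120 and 160, and 97.9, 102 and 109, on the embryo arrays. Lung read less on both, at 91.1 and 68.9. Of 7 tested neutrophil and mast cell genes S100A8 and S100A9, the calprotectin subunits, were lower at -1.94 and -1.99. Complement genes had 3 of 5 lower. Neither of the 2 tested mesothelium genes was called. None of the MHC, neutrophil or complement falls was called when the other tissues lent their spread.

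Signals known from lung development leaned lower. Of 25 tested 8 were lower, against 11.7% of all genes, none higher and the median was -0.54. FGFR1, a fibroblast growth factor receptor, read 12.5, 18.9 and 11.9 on the embryo arrays and 624 in lung (-3.03 ± 0.17, limma adjusted p = 0.000812), though 2 other probe sets of it were not called. TCF21, a mesenchymal factor, read 9.34, 2.85 and 12.3 on the embryo arrays and 541 in lung (-2.96 ± 0.14, limma adjusted p = 0.000641). TGFBR2, a receptor of transforming growth factor beta, differed by -2.29. Of the 8 falls, 5 were called with the spread of the other tissues.

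Glucocorticoid hormones mature the lung before birth. Of 10 tested genes of that response 4 were lower in embryos, against 11.7% of all genes, and none higher. NR3C1, the glucocorticoid receptor, read 26.9, 27.6 and 29.9 on the embryo arrays and 548 in lung (-2.65 ± 0.16, limma adjusted p = 0.00091), and its other 2 probe sets were lower as well. Lung was not above the other tissues for NR3C1, as those ran from 349 to 697. NFKBIA, the inhibitor of NF-kappa-B, read 10.2, 1.44 and 1.38 on the embryo arrays and 589 in lung (-3.14). ZBTB16 and TSC22D3, both hormone-induced transcription regulators, differed by -2.32 and -2.21.

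Of 24 tested genes of oxidative stress and detoxification 2 were higher, a share near the 7.86% of all genes, and 7 were lower, against 11.7%. PRDX1 and PRDX2, cytosolic peroxiredoxins, were higher: PRDX2 read 1024, 871 and 902 on the embryo arrays and 264 in lung (1.58 ± 0.18, limma adjusted p = 0.00481), and PRDX1 differed by 1.24. PRDX6, a peroxiredoxin with phospholipase activity that turns over surfactant lipid, read 136, 110 and 77.6 on the embryo arrays and 694 in lung (-2.11 ± 0.24, limma adjusted p = 0.00457), with a second probe set at 0.40 that was not called. The glutathione transferases GSTA1 and GSTM3 differed by -2.49 and -2.36. Without the second embryo array none of the 2 rises and 3 of the 7 falls were called.

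Lipid synthesis genes went both ways, with 4 of 17 tested higher and 4 lower (median 0.04), against 7.86% and 11.7% of all genes. The rises were enzymes of fatty acid and sterol synthesis. ELOVL6, a fatty acid elongase, read 316, 333 and 294 on the embryo arrays and 27.3 in lung (1.97 ± 0.15, limma adjusted p = 0.00143). ACLY, which makes cytosolic acetyl-CoA, ACACA, acetyl-CoA carboxylase, and HMGCS1, a sterol pathway synthase, differed by 1.68, 1.42 and 1.13, but second probe sets of ACLY (0.09) and HMGCS1 (0.48) were not called. The falls were LPCAT1 and CEBPA, given above, CHPT1, which completes phosphatidylcholine synthesis (-1.47), and LPL, lipoprotein lipase (-1.11). Without the second embryo array ELOVL6 alone of the 8 was called.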

How the data were processed

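The authors deposited a linear intensity for each probe set on each array; their background correction, scaling and software were not given in the sources used here. Arrays were assigned to groups by their titles. Quantile normalisation of all 10 arrays preceded log2(intensity + 70.85); the offset is the middle value, among the arrays, of each array's 25th percentile. Probe sets were tested if the embryo mean or the lung array was above the normalised median, 6639 of 10186. limma 3.58.1 in R 4.3.3 fitted 8 groups (two-sided moderated tests by eBayes, trend and robust both on, with Benjamini-Hochberg adjustment over all probe sets tested), with 2 residual degrees of freedom before moderation. Python 3.11.15 with pandas 2.3.3 and matplotlib 3.10.9 made the summaries and figures.

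Probe sets took human gene symbols from the platform annotation: 8847 had 1 symbol, 479 several and 860 none. Of 4642 genes tested, 4390 (94.6%) had their symbol in the bovine RefSeq gene table. No genome build is named, so no coordinates are given. The members and lists were chosen with earlier results of these data known, so list counts are descriptions. Genes named are KRT8, PDPN, KLF4 and SFTPC, the 10 largest rises and falls among called genes, tested members of the 6 epithelial lists, up to 4 called genes in each direction in every other list, up to 12 genes bright in lung alone and up to 12 shared by embryo and lung, by ratio, and genes of the label check; other genes named beside these were picked after their values were seen. Alternatives changed the scaling, offset, filter, moderation, groups fitted and embryo arrays used. The number of arrays, rather than any depth, limits precision here.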

Additional observations from a re-analysis of the deposited data

How the results depend on the processing

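No paired analysis was possible because lung has 1 array and the labels link no embryo array to it. Leaving out each embryo array in turn gave 94 to 684 higher and 329 to 814 lower probe sets, against 573 and 797 with all 3; without the first array the counts were 293 and 624, and without the second 94 and 329. An offset 4 times larger gave 147 higher and 283 lower. Treating the 6 other tissues as 1 group gave 166 higher and 217 lower, all 383 among the 1370 calls of the 8-group fit, and for lung against the other tissues 119 higher and 1 lower, against 512 and 84. Setting the limit for probe sets bright in lung alone at 2 times gave 176, against 59 at 4 times. The cause of these shifts was not tested. The values as deposited (703 higher, 649 lower), a common median (517 and 900), quantile normalisation of the 4 arrays, an offset of 1, other filters, plain moderation, a fit of the 4 arrays alone and the adjusted p alone stayed within 1.5 times. Of the 123 named genes that were called, 117 stayed called with the values as deposited, 122 with a common median, 88 with the larger offset, 60 with the 6 tissues as 1 group, and 110, 80 and 122 without the first, the second and the third embryo array; none changed direction in those settings. Signal over background cannot be judged, since no detection call was used here.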

Other observations

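HBB, which encodes the beta chain of haemoglobin, was the one called gene of 3 tested blood cell genes, and it was higher in IVF embryos than in lung. It read 622, 413 and 508 on the embryo arrays and 77.7 in lung, against 62.3 to 286 in the other tissues (1.96 ± 0.25, limma adjusted p = 0.0063). A second HBB probe set read 287, 265 and 385 on the embryo arrays and 7.81 in lung (2.27, limma adjusted p = 0.00352), and another, at 61.3, 57.5 and 53.4 on the embryo arrays and 72.0 in lung, was too dim to be tested. With the spread of the other tissues the call of the first was lost (limma adjusted p = 0.0665).

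FGF4, a growth factor known from the inner cell mass, was bright in lung alone: it read 47.1, 46.7 and 36.2 on the embryo arrays and 293 in lung, against 30.3 to 48.1 in the other tissues. The lung value stood apart from all 9 other arrays.

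SMAD6, an inhibitory SMAD of BMP signalling, had 2 probe sets that were bright in lung alone, at 307 and 298 in lung. Its remaining probe set read 176, 256 and 1045 on the embryo arrays and 374 in lung, so the third embryo array alone was above lung there.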
